A study of Mus musculus with 4 samples.

Results

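The proteasome genes of mouse embryonic stem cells (ESCs) were examined as the rows of the gene count table whose symbol is Psm followed by a letter from a to g and a number. The rule found 49 genes of 55418 rows. They comprised 8 alpha genes of the 20S core (Psma), 7 constitutive beta genes (Psmb1 to Psmb7), 3 beta genes of the immunoproteasome (Psmb8, Psmb9 and Psmb10), the thymic beta gene Psmb11, 6 ATPases of the 19S particle (Psmc), 14 other 19S genes (Psmd), 5 activator genes (Psme), the inhibitor gene Psmf1 and 4 assembly chaperone genes (Psmg). Of these, 46 had enough counts to be tested, and each of the 46 had at least 37 counts in every library. Psmb8, Psmb11 and Psme2b did not pass the filter on low counts.

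The libraries came from E14 ESCs, a mouse ESC line (strain written 12910la in the labels), cultured on gelatin in serum medium with LIF. RNA-seq was made from 2 wild-type (WT) and 2 Pim3-/- libraries. Pim3 was edited with CRISPR/Cas9 from a plasmid that carries Cas9 and the guide RNAs, and the Pim3-/- cells were a pair of independent clonal lines, so each Pim3-/- library stands for 1 clone. The study describes the WT libraries as separate biological samples, without saying how the cultures were separated, and p-values measure the spread between these libraries. The libraries held 22029427 to 25668307 counts. Pim3, which encodes the serine/threonine kinase that was targeted, had counts of 4392 in WT 1 and 4953 in WT 2, against 4970 and 4804 in the edited lines (log2 fold change -0.27, adjusted p = 0.251). Small Cas9 edits need not lower a gene's count, so this value does not check the genotype. The study checked the knockout by DNA sequencing, by qPCR of the targeted Pim3 fragments and by western blot. It reports a complete loss of PIM3 protein. The markers of ESCs were present in each library, with 8 of 8 listed genes tested. Of these, 3 were called lower (Pou5f1, Nanog and Dppa5a, at 45.9%, 53.7% and 51.2% of WT). The other 5 did not pass, and 4 of the 8 had a log2 fold change above 0 (Sox2 0.38, Tdgf1 0.33, Fgf4 0.50 and Esrrb 0.03). Summed levels were 10363 and 9327 CPM (counts scaled to a library of common size) in WT against 6658 and 6390 in Pim3-/-. By qPCR, the study reports Oct4 (Pou5f1) and Sox2 as not disrupted and Nanog as raised in Pim3-/- ESCs. For the rise of Nanog it also cites a western blot of NANOG protein. In these counts, by contrast, Pou5f1 and Nanog were called lower.

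The proteasome degrades proteins that carry ubiquitin chains. Its 20S core is a barrel of stacked rings, in which alpha subunits form the outer rings that gate the chamber and beta subunits form the inner rings that hold the proteolytic sites. The 19S particle caps the barrel, binds ubiquitin and unfolds the substrate with a ring of ATPases. PA28 and PA200 activators can bind the barrel in place of the 19S particle, and dedicated chaperones build the rings before they join. ESCs are known for high proteasome activity, and the subunits are encoded by separate genes on many chromosomes.

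Transcripts of the proteasome were lower in Pim3-/- ESCs, and the median fall was deepest in the 20S core. The 49 genes together took 1.06% and 1.02% of all counts in WT libraries and 0.783% and 0.589% in Pim3-/- libraries. On CPM scaled by TMM (a scaling that sets the bulk of genes equal between libraries), their summed level was 12862 and 11606 in WT and 6713 and 5030 in Pim3-/-. Both Pim3-/- libraries were below both WT libraries, and Pim3-/- 2 was below Pim3-/- 1. In bulk RNA, fewer cells of a kind and less RNA in each cell cannot be told apart. Of the 46 tested genes, 44 had a log2 fold change below 0 and 36 passed the test as lower (edgeR quasi-likelihood test, Benjamini-Hochberg adjusted p under 0.05), where 16.2% of all 18444 tested genes were called lower. The 36 were also at least 1.5-fold lower, a call that 15.5% of all tested genes met. No member was called higher by edgeR, against 17.6% of all tested genes, and the number higher was also 0 at an unadjusted p under 0.05 and 0 in the Wald test of DESeq2. The median log2 fold change of the 46 genes was -1.12, which is 45.9% of the WT level, and the median of all tested genes was 0.07. Of the 49 genes, 40 had both Pim3-/- libraries below both WT libraries, a pattern found in 34.2% of all tested genes. Calls with a library left out changed over all genes and not only for members. Without a WT library, 1 residual degree of freedom between the clones remains, and very few genes of any kind were called lower. The median log2 fold change of the members was -1.03 without WT 1, -1.20 without WT 2, -1.25 without Pim3-/- 1 and -0.95 without Pim3-/- 2. The medians of all tested genes were then 0.07, 0.09, 0.06 and 0.05. With a Pim3-/- library left out, 1 clone is set against WT and the spread comes from the WT pair alone, which was closer than the clones (chi-square per degree of freedom 10.6 against 50.2). The 44 log2 fold changes below 0 numbered 44 without either WT library, 44 without Pim3-/- 1 and 43 without Pim3-/- 2. On library totals in place of TMM, which raise the median of all genes by 0.45, 26 were called lower (5.93% of all tested genes), 38 had a log2 fold change below 0, and 1 (Psmf1) was called higher (35.8% of all tested genes). Without Pim3-/- 2 the number called higher was also 1 (Psmb9).

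**Figure D1:**
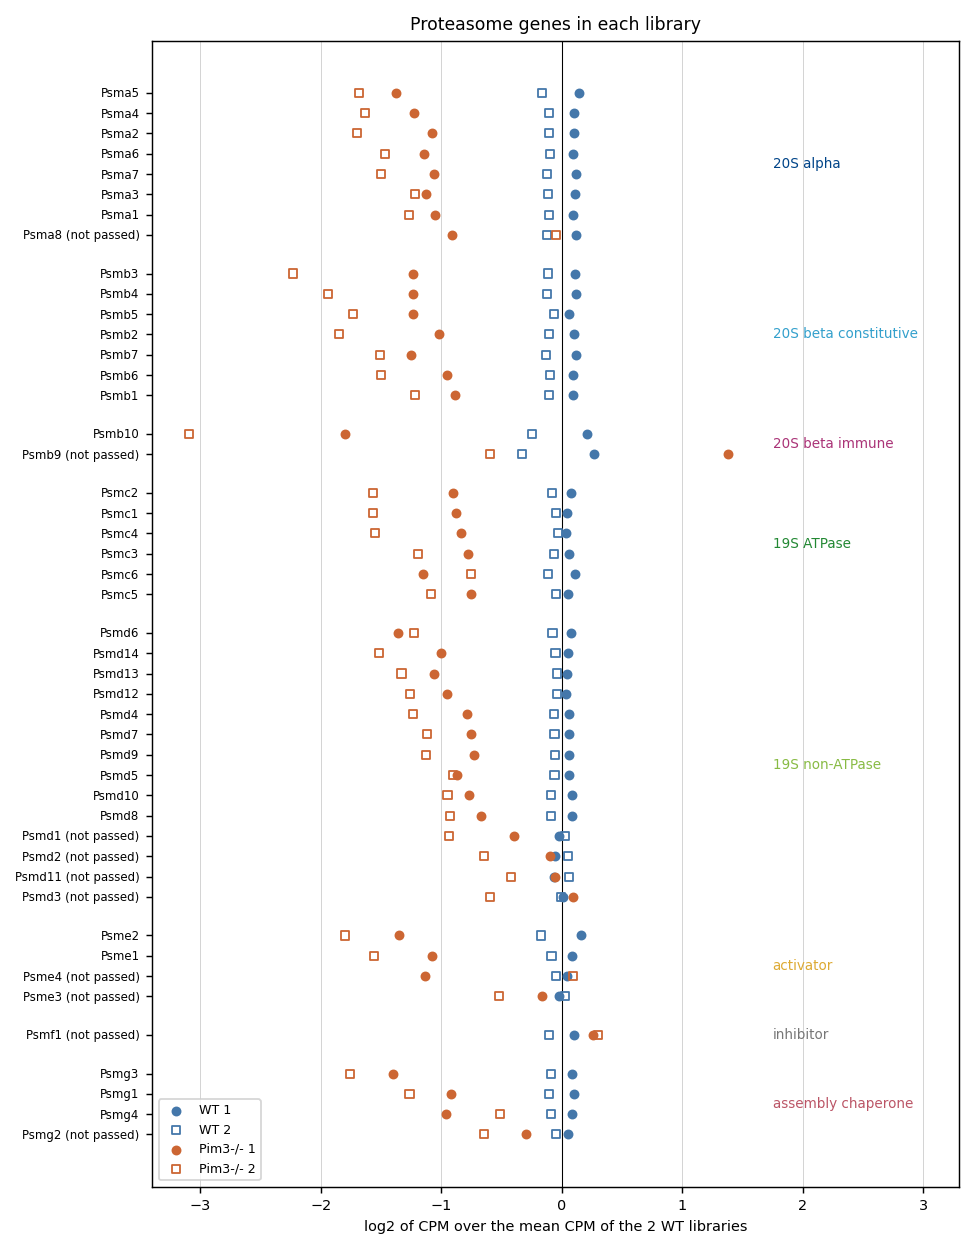
Each row is 1 of the 46 tested proteasome genes, grouped by subcomplex, and each point is 1 library. The x axis gives log2 of the gene's CPM over the mean CPM of the 2 WT libraries (circles, replicate 1; open squares, replicate 2; blue, WT; orange, Pim3-/-). The orange points of Psma1 to Psma7 and Psmb1 to Psmb7 lie between -0.89 (Psmb1) and -2.23 (Psmb3). Those of Psma8 and of the immune genes Psmb9 and Psmb10 reach outside that range. Genes that did not pass the test are marked.

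The background to these counts is the level of expression. Proteasome genes are strongly expressed, and among the 3084 tested genes with a mean level above 64 CPM the median log2 fold change was -0.48, 76.6% were below 0 and 42.2% were called lower. Of the members, 37 were above that level. Among them 30 were called lower, and their median log2 fold change was -1.16.

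Markers of other cell types also moved between the groups. Of 8 listed primitive endoderm genes, 7 were called higher, with summed levels of 3.71 and 5.74 CPM in WT and 43.9 and 20.1 CPM in Pim3-/-. Of 7 fibroblast genes 3 were tested and 1 (Pdgfrb) was called higher. Pdgfrb had 4.96 and 6.62 CPM in WT and 23.6 and 24.4 CPM in Pim3-/-. Thy1 (log2 fold change -0.13) and Col1a1 (1.09) did not pass. Col3a1, Postn and Lum were at or below 3 counts in each library. The fibroblast sum was 27.7, 28.2, 49.0 and 44.8 CPM, and its rise lay mostly in Pdgfrb. The part of such cells in the proteasome values was not tested.

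The alpha subunits of the 20S core fell together. All 7 widely expressed alpha genes (Psma1 to Psma7) were called lower, with log2 fold changes from -1.52 to -1.16. Psma5, the alpha subunit with the largest fall, had 408 and 330 CPM in WT and 142 and 115 CPM in Pim3-/- (log2 fold change -1.52, SE 0.21, adjusted p = 0.0047). Psma1, with the smallest fall of these genes, had 333 and 290 CPM in WT and 151 and 129 CPM in Pim3-/- (log2 fold change -1.16, SE 0.19, adjusted p = 0.0064). In neither gene did the groups overlap. Psma8, which encodes the alpha subunit of the testis proteasome and takes the place of Psma7 in meiotic cells, behaved otherwise. It had 22.4 and 18.99 CPM in WT, 11.0 in Pim3-/- 1 and 20.02 in Pim3-/- 2. One clone was below the WT libraries and the other lay between them, and the log2 fold change of -0.42 did not pass (adjusted p = 0.294). Its sign turned with the scaling (0.04 on library totals), and without Pim3-/- 2 it was -0.91 and passed on the spread of the WT pair alone. Per kilobase of exons, Psma8 made up 5.93% and 5.95% of the sum of Psma7 and Psma8 in WT, 6.54% in Pim3-/- 1 and 14.8% in Pim3-/- 2. Of 8 listed markers of meiotic germ cells, 7 were tested, 4 were called higher and 1 (Hormad1) lower, with a summed level of 44.5 and 40.9 CPM in WT and 135 and 115 CPM in Pim3-/-. Without Stra8 the sum was 34.0 and 32.2 CPM in WT and 34.1 and 46.4 CPM in Pim3-/-. Spo11 was at or below 3 counts in each library. The part of these cells in the Psma8 values was not tested.

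The constitutive beta subunits had the lowest median of the subcomplexes. All 7 were called lower, with a median log2 fold change of -1.38, or 38.5% of WT. Psmb5, the beta5 subunit with chymotrypsin-like activity and the target of the drug bortezomib, had 422 and 386 CPM in WT and 171 and 121 CPM in Pim3-/-. Its mean fell from 404 ± 25.2 CPM to 146 ± 35.3 CPM (SD, n = 2 in each group), a log2 fold change of -1.47 (SE 0.22, adjusted p = 0.0054). Psmb6, the beta1 subunit with caspase-like activity, had 402 and 354 CPM in WT and 195 and 133 CPM in Pim3-/- (log2 fold change -1.20, SE 0.23, adjusted p = 0.0096). Psmb7, the beta2 subunit with trypsin-like activity, had 555 and 467 CPM in WT and 214 and 179 CPM in Pim3-/- (log2 fold change -1.38, SE 0.20, adjusted p = 0.0053). The groups were separate in each of the catalytic genes. Among the subunits without a catalytic site, Psmb3 had the largest fall, with 593 and 508 CPM in WT and 234 and 117 CPM in Pim3-/- (log2 fold change -1.65, SE 0.32, adjusted p = 0.0102). The clones differed by more in Psmb3 than the WT libraries did. Psmb4 had 733 and 620 CPM in WT and 288 and 176 CPM in Pim3-/-, a log2 fold change of -1.55 (SE 0.27, adjusted p = 0.0074). Psmb1 had the smallest fall, with 522 and 455 CPM in WT and 264 and 210 CPM in Pim3-/- (log2 fold change -1.04, SE 0.20, adjusted p = 0.0102). It was still at 48.5% of WT. Of the exon bases of Psmb7, 11.8% are shared with Nek6 on the other strand, and 12.1% of those of Psmb5 with the microRNA gene Mir686 on the same strand, so reads there cannot be assigned to 1 gene.

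The 14 subunits that form the standard 20S core (Psma1 to Psma7 and Psmb1 to Psmb7) are needed in equal numbers in the particle. Their levels per kilobase of exons (RPKM) in WT spanned 4.93-fold, from 91.1 for Psma3 to 450 for Psmb5. The merged exons measure 3894 bp in Psma3 and 899 bp in Psmb5, and their WT means were 355 and 404 CPM. The span thus depends on the annotated length, and equality of the transcript amounts was not tested. All 14 had both Pim3-/- libraries below both WT libraries, and in all 14 Pim3-/- 2 was below Pim3-/- 1. Their median log2 value against the WT mean was -1.13 in Pim3-/- 1 and -1.57 in Pim3-/- 2. The range over the 14 fitted log2 fold changes, -1.65 to -1.04, was narrow beside the fall itself.

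Sequences upstream of these genes were read from the RefSeq promoter windows of the mouse genome (build GRCm38.p6). The search used 44 windows of 41 of the 49 members. Of the core genes, Psmb1, Psmb2 and the catalytic Psmb7 have no window and were not searched. The same holds for Psmc3, Psmd3 and Psmd7 of the 19S genes, and Psma8 and Psmg2 were not used here. In the 250 bases before each start, both strands were searched for the core of the antioxidant response element (TGACNNNGC, bound by Nfe2l1 and Nfe2l2 with small Maf proteins), the CCAAT box (CCAAT, bound by NF-Y), the GC box (GGGCGG, bound by Sp1) and an ETS core (CCGGAAG). The antioxidant core was in 5 of 44 member windows (11.4%) and in 10.2% of all 32851 windows. The CCAAT box was in 14 member windows (31.8%) and in 33.9% of all windows. The GC box was in 23 member windows (52.3%) against 32.7% of all, and the ETS core in 13 (29.5%) against 6.91% of all. By subcomplex, the ETS core was in 1 of 12 windows of the 20S alpha and constitutive beta genes and in 9 of 18 windows of the 19S genes. In the same order, the antioxidant core was in 2 of 12 and 3 of 18. The CCAAT box was in 6 of 12 and 5 of 18, and the GC box in 5 of 12 and 12 of 18. These count windows, not genes: Psma6, Psmc2 and Psme2 have windows for alternative starts. Those of Psme2 overlap, and those of Psmc2 both hold the ETS core. A match describes the letters and shows no binding. The stretches below, 150 bases each written 5′ to 3′ and outside annotated exons, are shown for the catalytic genes that had a match to the antioxidant core, for the constitutive beta gene with the largest fall, and for the immune gene with the largest fall of the members. Capitals mark any of the motifs searched.
Psmb5 (chr14:54618023-54618172, strand -): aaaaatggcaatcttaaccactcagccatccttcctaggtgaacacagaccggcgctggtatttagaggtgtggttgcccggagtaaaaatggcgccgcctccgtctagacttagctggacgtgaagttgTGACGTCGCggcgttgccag
Psmb6 (chr11:70525207-70525356, strand +): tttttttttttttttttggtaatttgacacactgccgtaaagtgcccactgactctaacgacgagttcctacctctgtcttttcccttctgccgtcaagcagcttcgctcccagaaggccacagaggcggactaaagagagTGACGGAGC
Psmb3 (chr11:97703249-97703398, strand +): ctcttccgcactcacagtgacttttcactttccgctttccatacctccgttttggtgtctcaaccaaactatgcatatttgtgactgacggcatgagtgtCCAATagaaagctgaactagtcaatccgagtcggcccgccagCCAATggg
Psmb10 (chr8:105938445-105938594, strand -): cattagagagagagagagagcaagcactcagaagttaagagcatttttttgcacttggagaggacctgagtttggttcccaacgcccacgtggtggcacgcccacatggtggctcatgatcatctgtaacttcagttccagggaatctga
Psmb5 and Psmb6 carry the antioxidant core near the start, Psmb3 carries a pair of CCAAT boxes, and the stretch of Psmb10 has no capital letter because none of the motifs matched its window.

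Psmb10 and Psmb9 are among the members that departed from the common pattern. Immune subunits replace the catalytic ones in the immunoproteasome, Psmb8 for Psmb5, Psmb9 for Psmb6 and Psmb10 for Psmb7, and are known to be induced by interferon in the production of peptides for MHC class I. For Psmb10 the WT libraries gave 1989 and 1717 counts, and the clones 689 and 271. On the scaled level that was 104 and 75.8 CPM in WT and 25.8 and 10.5 CPM in Pim3-/-. It was the largest fall of the 46 genes (log2 fold change -2.30, SE 0.39, adjusted p = 0.0070), and Pim3-/- 2 was below Pim3-/- 1. Leaving out each library in turn gave log2 fold changes from -3.09 to -1.80. Per kilobase, Psmb10 made up 27.3% and 24.6% of the sum of Psmb7 and Psmb10 in WT and 19.5% and 10.5% in Pim3-/-. These shares depend on the annotated merged exon lengths, 1705 bp for Psmb10 and 3421 bp for Psmb7. With the longest transcript as the length they were 28.9% and 26.1% in WT and 20.7% and 11.3% in Pim3-/-. The shares did not overlap between the groups, and an exact permutation test of 2 against 2 cannot go below p = 0.333.

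Psmb9 was weakly expressed, with 50 and 39 counts in WT, 150 in Pim3-/- 1 and 37 in Pim3-/- 2. The clones lay on opposite sides of the WT libraries, and the log2 fold change of 0.71 (SE 0.61) did not pass (adjusted p = 0.389). Without Pim3-/- 1 it was -0.58, and without Pim3-/- 2 it was 1.39 and passed as higher on the spread of the WT pair alone. Per kilobase, Psmb9 was 0.331% and 0.248% of the sum of Psmb6 and Psmb9 in WT and 1.45% and 0.548% in Pim3-/-. Its neighbour Tap1, which carries peptides into the endoplasmic reticulum, starts from the same stretch in the opposite direction, and 212 of the 3660 exon bases of Psmb9 overlap it, so reads there cannot be told apart without strand. Psmb8 had 0 counts in both WT libraries and 1 in each Pim3-/- library, all below the 3 counts that a count of 0 allows, and no fold is given. Psmb11, the beta5 subunit of thymic cortical epithelium, had 0 counts in each library, which allows up to 0.157, 0.132, 0.112 and 0.116 CPM in WT 1, WT 2, Pim3-/- 1 and Pim3-/- 2. The intervals and limits cover counting error only. Of the markers of these cell types, Ptprc and Tyrobp (haematopoietic) were at or below 3 counts in each library. Of the 8 haematopoietic genes 5 were tested and 1 was called lower, with sums of 75.0, 65.8, 29.8 and 60.9 CPM. Foxn1 (thymic epithelium) had 0, 2, 5 and 5 counts. Of the 6 thymic genes 5 were tested and 1 (Aire) was called higher, with sums of 160, 165, 265 and 267 CPM. Aire alone had 63.1, 61.9, 177 and 157 CPM, and 3 of the 5 tested thymic genes had a log2 fold change below 0. The part of these cells in the immune and thymic subunits was not tested. Of 8 listed interferon response genes, Ifit1, Ifit3 and Oasl2 were at or below 3 counts in each library, and of the 2 tested neither passed (Irf7, log2 fold change 0.68, adjusted p = 0.320, and Stat2, -0.10, adjusted p = 0.645). The summed level of that list was 34.9, 35.4, 34.7 and 32.7 CPM, most of it from Stat2, at 33.8, 34.3, 32.3 and 31.3 CPM. The sum therefore says little about the other genes of the list.

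**Figure D2:**
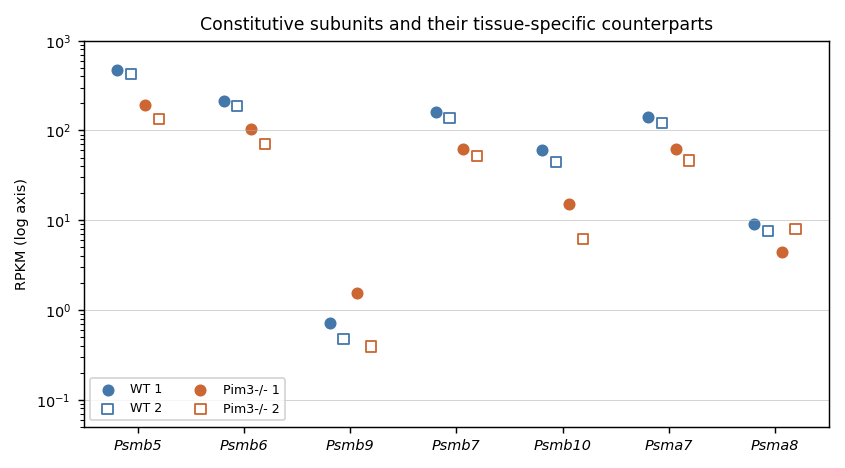
Level in RPKM (log axis) of the catalytic subunits Psmb5, Psmb6 and Psmb7, of Psma7 and of their tissue-specific counterparts in each of the 4 libraries (circles, replicate 1; open squares, replicate 2). Psmb8, the counterpart of Psmb5, had at most 1 count and is not drawn. The Pim3-/- points of Psmb10 (15.1 and 6.17) lie well below the WT points (60.9 and 44.5), while those of Psmb9 and Psma8 lie on both sides of a WT point.

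The 19S ATPases, which form the ring that unfolds substrates and opens the gate, fell as a uniform group. All 6 were called lower, with log2 fold changes between -1.20 and -0.91 and a median of -1.06, or 47.9% of WT. On library totals 3 of the 6 calls remained (Psmc1, Psmc2 and Psmc4). Psmc2 had the largest fall, with 276 and 246 CPM in WT and 140 and 88.1 CPM in Pim3-/- (log2 fold change -1.20, SE 0.24, adjusted p = 0.0115). Psmc5 had the smallest, with 253 and 237 CPM in WT and 145 and 116 CPM in Pim3-/- (log2 fold change -0.91, SE 0.19, adjusted p = 0.0121). Psmc6 was the ATPase in which Pim3-/- 2 was above Pim3-/- 1, at 79.9 against 60.7 CPM. Both of its Pim3-/- values were below the WT values of 145 and 124 CPM.

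The non-ATPase genes of the 19S particle were less uniform, with 10 of 14 called lower and a median log2 fold change of -0.90. On library totals 4 of the 14 were called lower (Psmd6, Psmd12, Psmd13 and Psmd14). Psmd6, a subunit of the lid, had the largest fall, with 274 and 247 CPM in WT and 101 and 111 CPM in Pim3-/- (log2 fold change -1.29, SE 0.18, adjusted p = 0.0047). The clones were close in this gene. Psmd14, the deubiquitinase that removes ubiquitin chains before the substrate enters the core, had 182 and 170 CPM in WT and 87.6 and 61.5 CPM in Pim3-/- (log2 fold change -1.24, SE 0.21, adjusted p = 0.0072). Psmd4, a ubiquitin receptor, had 383 and 352 CPM in WT and 212 and 156 CPM in Pim3-/- (log2 fold change -0.99, SE 0.21, adjusted p = 0.0127). The 3 genes among them that encode assembly chaperones of the 19S base and leave the mature particle (Psmd5, Psmd9 and Psmd10) were called lower with log2 fold changes from -0.91 to -0.86, calls that ended for all 3 on library totals. Of the exon bases of Psmd9, 25.5% are shared with Gm26745 on the other strand.

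The 4 members of this group that did not pass were the large base subunits Psmd1 and Psmd2 and the lid subunits Psmd3 and Psmd11. Psmd1, the scaffold on which the ubiquitin receptor Adrm1 docks, had 376 and 390 CPM in WT and 290 and 201 CPM in Pim3-/-. The groups did not overlap, and the log2 fold change of -0.64 fell short of the threshold (adjusted p = 0.0593), passing under 4 alternatives including the Wald test of DESeq2 (adjusted p = 0.0177, range over the alternatives 6.87e-08 to 0.506). Psmd2, the scaffold on which shuttle factors dock, had 537 and 579 CPM in WT, 522 in Pim3-/- 1 and 357 in Pim3-/- 2 (log2 fold change -0.35, adjusted p = 0.276). Psmd11, a lid subunit whose raised level has been tied to proteasome activity in human pluripotent cells, had 155 and 170 CPM in WT, 156 in Pim3-/- 1 and 121 in Pim3-/- 2 (log2 fold change -0.23, adjusted p = 0.373). Pim3-/- 1 was within or next to the WT values of both genes, and Pim3-/- 2 was below them. Psmd3 had 324 and 320 CPM in WT, 343 in Pim3-/- 1 and 213 in Pim3-/- 2, so the clones lay on opposite sides of WT (log2 fold change -0.21, adjusted p = 0.530). On library totals the log2 fold changes of Psmd2, Psmd3 and Psmd11 were above 0 (0.10, 0.24 and 0.22), and without Pim3-/- 2 that of Psmd3 was 0.09. With Pim3-/- 2 as the lone clone and the spread of the WT pair, each of the 3 passed as lower. The upstream stretches of Psmd2 and Psmd11 are shown as those of 19S members that did not pass.
Psmd2 (chr16:20651502-20651651, strand +): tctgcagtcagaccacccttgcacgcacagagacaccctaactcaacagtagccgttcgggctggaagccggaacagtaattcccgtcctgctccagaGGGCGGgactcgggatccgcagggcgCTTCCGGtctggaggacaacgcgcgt
Psmd11 (chr11:80428465-80428614, strand +): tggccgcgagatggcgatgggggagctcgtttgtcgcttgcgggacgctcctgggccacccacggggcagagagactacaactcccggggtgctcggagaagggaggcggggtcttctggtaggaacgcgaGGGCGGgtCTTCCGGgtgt
Both hold a GC box and an ETS core, in capitals. The windows of Psmd6, Psmd12 and Psmc6, which were called lower, also hold both motifs, and that of Psmd1, which did not pass, holds neither.

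The summed level of the 20S core was lower against WT than that of the 19S particle. Summed over the 14 core genes the level was 6440 and 5539 CPM in WT and 2726 and 1965 CPM in Pim3-/-, or 39.2% of WT on the group means. Summed over the 20 Psmc and Psmd genes it was 5488 and 5231 CPM in WT and 3458 and 2563 CPM in Pim3-/-, or 56.2% of WT. The ratio of core counts to 19S counts within a library, which does not depend on the scaling between libraries, was 1.17 in WT 1 and 1.06 in WT 2 and 0.788 in Pim3-/- 1 and 0.767 in Pim3-/- 2. The Pim3-/- libraries were close to each other and below both WT libraries, in a design whose smallest exact permutation p is 0.333. The 14 core genes had a median log2 fold change of -1.37 and the 20 genes of the 19S particle one of -0.93. A ratio within a library shows unequal change and not which group of genes moved.

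**Figure D3:**
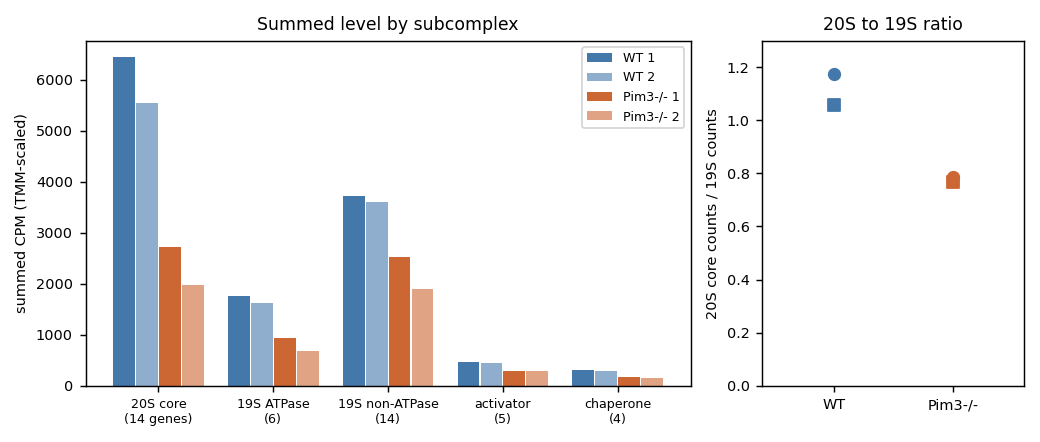
Left, summed CPM of each subcomplex in each of the 4 libraries (bars from 0, number of genes in brackets). Right, counts of the 14 core genes over counts of the 20 genes of the 19S particle in each library, from 1.06 to 1.17 in WT and from 0.767 to 0.788 in Pim3-/-.

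Exon length moved with the fold change. Across the 46 tested members, log2 fold change and log2 merged exon length had Pearson's r = 0.42 and Spearman's rho = 0.45, as a description over genes that share libraries, and across 3083 tested genes above 64 CPM r was 0.37 and rho 0.45. Among genes above that level with up to 1500 bp of exons, the median log2 fold change was -0.98 over 328 genes and -1.34 over 6 members. From 1500 to 3000 bp it was -0.77 over 710 genes and -1.17 over 16 members, and from 3000 to 6000 bp it was -0.38 over 1174 genes and -1.17 over 11 members. Above 6000 bp it was -0.11 over 871 genes and -0.52 over 4 members (Psmd1, Psmd5, Psmd11 and Psme4). The core and 19S genes also differ in length, and were compared within length classes. From 1500 to 3000 bp, 5 core genes had a median of -1.41 and 8 genes of the 19S particle one of -1.12. From 3000 to 6000 bp, 5 core genes had a median of -1.27 and 6 genes of the 19S particle one of -0.86. The outer classes hold few genes of one side. Up to 1500 bp, 4 core genes had a median of -1.42 and 1 gene of the 19S particle (Psmc5) had -0.91. Above 6000 bp there were 0 core genes, and 3 genes of the 19S particle had a median of -0.64. The part of transcript length in the members' fall was not tested.

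**Figure D4:**
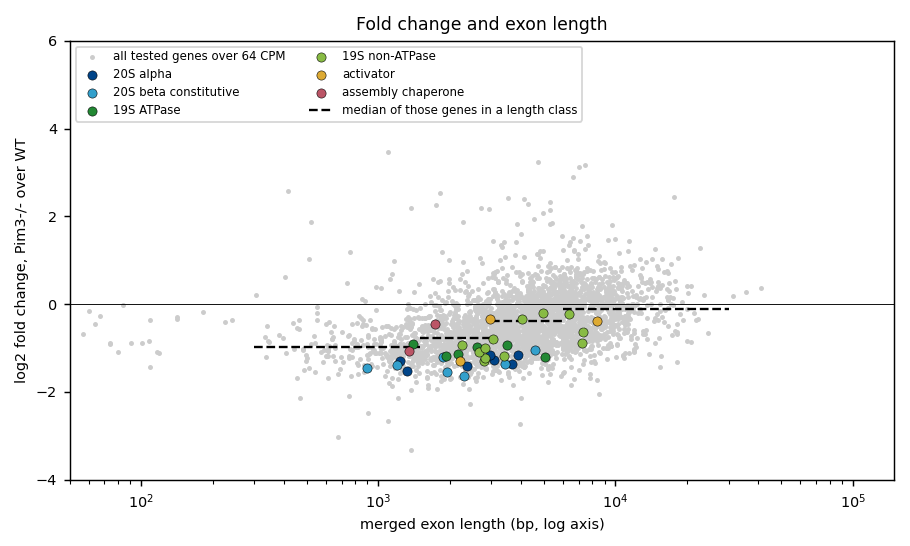
Log2 fold change (Pim3-/- over WT) against merged exon length (bp, log axis) for the 3083 tested genes above 64 CPM with a known length (grey) and for the members among them (coloured by subcomplex). Dashed lines give the median of all those genes in each length class, from -0.98 in the shortest to -0.11 in the longest class, and most members lie below the line of their class.

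Of the 4 activator genes tested, 2 were called lower. Psme1 and Psme2 encode the subunits of PA28 that bind the core in the cytoplasm and are known to be induced with the immunoproteasome. Psme2 had 75.7 and 60.1 CPM in WT and 26.6 and 19.5 CPM in Pim3-/- (log2 fold change -1.56, SE 0.21, adjusted p = 0.0047). Psme1 had 97.6 and 87.0 CPM in WT and 43.8 and 31.3 CPM in Pim3-/- (log2 fold change -1.30, SE 0.20, adjusted p = 0.0059). They fell to 34.0% and 40.7% of WT. Psme3, the nuclear form of PA28, had 182 and 189 CPM in WT and 166 and 129 CPM in Pim3-/-, without overlap, and did not pass (log2 fold change -0.33, adjusted p = 0.206). Psme4, which encodes PA200, had 111 and 104 CPM in WT, 48.7 in Pim3-/- 1 and 114 in Pim3-/- 2. The clones lay on opposite sides of WT, and the log2 fold change of -0.39 did not pass (adjusted p = 0.406). It was 0.09 without Pim3-/- 1 and -1.14 without Pim3-/- 2, when it passed on the spread of the WT pair alone, and on library totals the values of Psme3 and Psme4 were 0.12 and 0.06. Psme2b had 4, 2, 4 and 0 counts in WT 1, WT 2, Pim3-/- 1 and Pim3-/- 2. It is a near copy of Psme2, so its few reads are uncertain. Psmf1 encodes PI31, which inhibits the isolated core. It had 24.8 and 21.5 CPM in WT and 27.6 and 28.4 CPM in Pim3-/-. Both Pim3-/- libraries were above both WT libraries, and the log2 fold change of 0.28 did not pass (adjusted p = 0.245). On library totals it was 0.73 and passed.

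Of the 4 assembly chaperones that build the alpha ring, 3 were called lower, and 2 of them (Psmg1 and Psmg3) on library totals. Psmg3, a partner in ring assembly, had 44.9 and 39.7 CPM in WT and 16.0 and 12.5 CPM in Pim3-/- (log2 fold change -1.57, SE 0.20, adjusted p = 0.0039). Psmg1, which acts as a dimer with Psmg2, had 143 and 124 CPM in WT and 70.6 and 55.5 CPM in Pim3-/- (log2 fold change -1.08, SE 0.19, adjusted p = 0.0077). Psmg4, which acts as a dimer with Psmg3, had 36.1 and 31.9 CPM in WT and 17.4 and 23.8 CPM in Pim3-/- (log2 fold change -0.72, SE 0.20, adjusted p = 0.0313). In Psmg4 the order of the clones was the opposite of that in most members. Psmg2 had 89.4 and 83.3 CPM in WT and 70.1 and 55.2 CPM in Pim3-/-, without overlap, and did not pass (log2 fold change -0.46, adjusted p = 0.0832). The partners of a dimer thus had unequal values in both dimers, and the differences within a pair were not tested.

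Genes that work with the proteasome without a Psm symbol were also tested. Of 50 listed genes, 49 were in the table and tested, and their median log2 fold change was -0.29. Of the 49, 12 were called lower and 2 higher, where 16.2% and 17.6% of all tested genes were. Of 13 partners of the 19S particle and the core, 7 were called lower. Pomp, which guides the last step of core assembly, fell with the core, at 308 and 257 CPM in WT and 125 and 78.0 CPM in Pim3-/- (log2 fold change -1.47, SE 0.26, adjusted p = 0.0074). Sem1, a small lid subunit, had 219 and 175 CPM in WT and 105 and 95.9 CPM in Pim3-/- (log2 fold change -0.97, SE 0.19, adjusted p = 0.0098). Adrm1, the ubiquitin receptor that docks on Psmd1, had 156 and 149 CPM in WT and 171 and 135 CPM in Pim3-/- (log2 fold change 0.00, SE 0.19, adjusted p = 0.997). The Pim3-/- values of Adrm1 lay on both sides of WT.

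Of the 11 genes of transcriptional control, 1 was called lower (Nfyc) and 1 higher. Nfe2l1, the factor that raises proteasome genes when the proteasome is impaired, had 109 and 114 CPM in WT and 161 and 134 CPM in Pim3-/- (log2 fold change 0.40, SE 0.18, adjusted p = 0.114). Its groups did not overlap, and the difference did not pass. Maff, a small Maf protein that pairs with it, was called higher, at 15.0 and 15.4 CPM in WT and 28.3 and 54.7 CPM in Pim3-/- (log2 fold change 1.45, SE 0.30, adjusted p = 0.0119). Of the ubiquitin and E1 genes, 2 of 6 were called lower. Of the 5 shuttle factors 1 was called lower, and so was 1 of 6 genes of the p97 complex, which extracts ubiquitylated proteins. That gene, Nsfl1c, encodes the cofactor p47 and had 228 and 205 CPM in WT and 102 and 90.6 CPM in Pim3-/- (log2 fold change -1.17, SE 0.18, adjusted p = 0.0054). Of 8 antigen processing genes, which handle the peptides the proteasome makes, 1 was called. Tap1 had 3.39 and 3.27 CPM in WT and 10.8 and 6.01 CPM in Pim3-/- (log2 fold change 1.34, SE 0.34, adjusted p = 0.0230), while Nlrc5, a transactivator of MHC class I genes, had 8, 15, 59 and 26 counts and did not pass (log2 fold change 1.56, adjusted p = 0.0659). The counts of this list changed with the scaling: on library totals 3 genes were called lower and 13 higher, where 5.93% and 35.8% of all tested genes were, and without WT 1 or without WT 2 the number called by edgeR was 0 in both directions. At an unadjusted p under 0.05 it was 6 lower and 2 higher without WT 1 and 9 lower and 3 higher without WT 2, and DESeq2 on the 4 libraries called 20 lower and 2 higher. Without Pim3-/- 1 the numbers called were 23 lower and 8 higher (27.9% and 29.2% of all tested genes), and without Pim3-/- 2 they were 23 and 9 (25.6% and 26.3%).

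**Figure D5:**
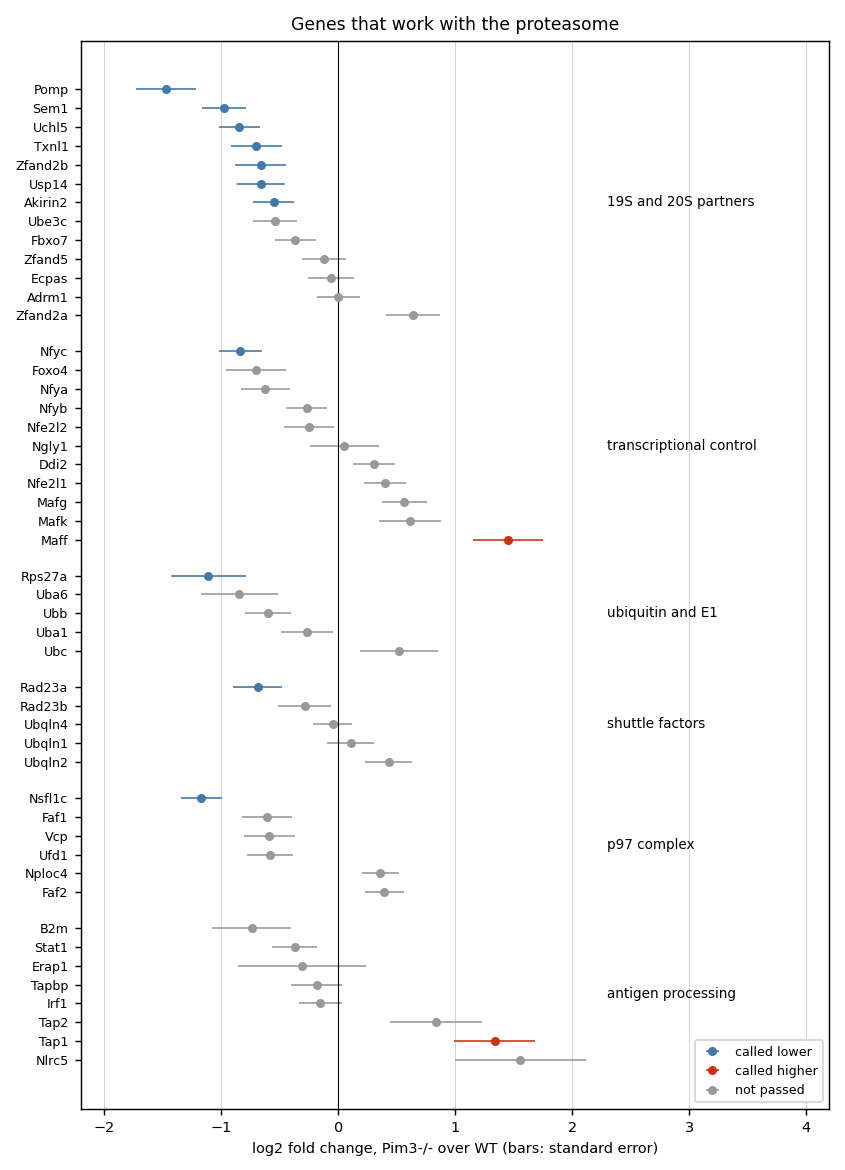
Log2 fold change (Pim3-/- over WT) of the associated genes that are reported with its standard error, by group (blue, called lower; red, called higher; grey, not passed). The lowest value is that of Pomp at -1.47, and Maff and Tap1 are the genes called higher.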

How the data were processed

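Total RNA from 2 WT and 2 Pim3-/- ESC libraries was used for mRNA-seq by a service company for the authors. The deposited table holds raw counts per gene symbol. The submitters' processing notes name Trim Galore, STAR, featureCounts and build GRCm38, whereas the published methods name Cutadapt and Hisat2 with mm10, and which made the table is not settled. Strand use, multi-mapping reads and versions are not given in the sources used here, so genes with near copies or overlaps are uncertain. A table of transposable elements was not used here.

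Groups came from the genotype labels. Counts were filtered with filterByExpr, scaled by TMM and tested with edgeR 4.0.16 (glmQLFit and glmQLFTest, R 4.3.3), without a replicate block, with Benjamini-Hochberg adjustment over 18444 genes. SE is the absolute log2 fold change over the square root of F. CPM used TMM-scaled totals. RPKM divided CPM by merged exon length (GENCODE M21), known for 99.9% of tested genes. DESeq2 1.42.0, other scalings, filters, a replicate block and leaving out each library were the alternatives. The fit was tested on simulated data. With 2 libraries a group, only large differences pass. Counting error is small at these depths, since 3 counts are 0.112 to 0.157 CPM, and the spread between clones sets the precision.

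The members and the lists were chosen with earlier results of these data known. Any member could be named. Library values are given for the catalytic genes, their immune counterparts, the lowest and highest log2 fold change of each subcomplex, members that did not pass the test or the filter, and members that were higher. Of the associated genes, Pomp, Adrm1, Sem1, Nfe2l1 and the 3 lowest and 3 highest log2 fold changes are named, except that the result of 1 gene is not reported here. Psma1, Psmb4, Psmc6, Psmd4, Psmd14, Psmd9, Psmg1, Psmg4 and Nfyc were added after their values were seen. Paaf1 of the list was not used here.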

Additional observations from a re-analysis of the deposited data

How the results depend on the processing

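The replicate block, size factors of DESeq2, its Wald test, no filter and a minimum of 10 counts per library called 35 to 37 members lower and 0 higher (0 at an unadjusted p under 0.05 in each). Library totals called 26 lower and 1 higher, and moved the subcomplex medians to -0.83 (20S alpha), -0.61 (19S ATPase), -0.45 (19S non-ATPase), -0.39 (activators) and -0.45 (chaperones). They also turned the log2 fold changes of Psma8 (0.038), Psmd11 (0.22), Psmd2 (0.10), Psmd3 (0.24), Psme3 (0.12) and Psme4 (0.060). Library totals raise the median of all genes by 0.45, which accounts for the common shift. Leaving out each library gave 0 to 42 members called lower, 0 to 1 higher, and chaperone medians from -1.01 to -0.78. The single-gene values that turned ranged from -0.58 to 1.39 (Psmb9), -1.14 to 0.095 (Psme4), -0.59 to 0.090 (Psmd3) and -0.18 to 0.16 (Adrm1). Without a WT library 1 residual degree of freedom between the clones remains, and over all genes 5 (without WT 1) or 105 (without WT 2) were called lower against 2987.

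Associated genes called lower numbered 3 on library totals, 7 with at least 10 counts in every library, 20 in the Wald test, 19 with the replicate block and 0 to 23 leaving out each library. Those called higher numbered 13 on library totals, 4 with at least 10 counts and 0 to 9 leaving out each library. Adrm1, at 0.00, was -0.040 with size factors of DESeq2, -0.032 without a filter, -0.040 in the Wald test and -0.0082 with the replicate block. For these, library totals apart, the cause was not tested. Same-numbered libraries did not deviate together over genes (correlation 0.03). The labels state no pairing, and the difference between the clones could hide a weak one, so pairing is not excluded. With the block 37 members were called lower. The highest over the lowest RPKM of the 14 core genes in WT went from 4.93 to 4.59 with the longest transcript as the length. The depth limits Psmb8, Psmb11 and Psme2b.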
